A study of Mus musculus with 8 samples.

Results

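The genes of the proteasome were followed through 8 RNA-sequencing libraries of sorted mouse bone marrow cells. Every gene whose symbol starts with Psma, Psmb, Psmc, Psmd, Psme, Psmf or Psmg followed by a number was taken, which gave 49 of the 20207 genes in the files. Of these, 5 belong to the immunoproteasome (Psmb8, Psmb9, Psmb10, Psme1 and Psme2) and 44 do not. The naming rule also caught Psmc3ip, a recombination factor that is named for binding Psmc3 and is not itself a subunit. All 49 passed the filter on low values, a total above 1 RPKM over the 8 libraries, as did 12561 genes in all. RPKM is the number of reads scaled to the length of the gene and to the reads of the library.

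Normal mice gave 2 libraries of long-term haematopoietic stem cells (LT-HSC, replicate 1 from mice of 2 months and replicate 2 from mice of 6 months), 1 of short-term stem cells (ST-HSC, 2 months) and 1 of KLS- progenitors (2 months). Mice with chronic myeloid leukemia (CML) gave 2 libraries of LT-CML stem cells, 1 of ST-CML stem cells and 1 of CML-KLS- progenitors, with no age in the labels. LT cells were sorted as CD150+CD48-CD135- and ST cells as CD150-CD48-CD135- within the KLS+ gate (cKit+, lineage-negative, Sca-1+), and KLS- cells as cKit+, lineage-negative and Sca-1-. Of the sorting genes, Ly6a (Sca-1) was at 72.4 to 152.2 RPKM in LT and ST libraries and at 8.16 (normal) and 11.7 (CML) in KLS- libraries, and Slamf1 (CD150) at 10.7 to 35.5 RPKM in LT and at most 2.87 RPKM elsewhere. Flt3 (CD135), however, was at 61.6 and 71.6 RPKM in the ST libraries, against 2.52 to 19.2 RPKM in LT, although both were gated as CD135-. By the study's methods the CML mice carried Tal1-tTA and TRE-BCR-ABL1, and the BCR-ABL1 oncogene was induced by withdrawing doxycycline. The paper describes the activation of the transactivator tTA as specific to HSCs. The methods name littermates with Tal1-tTA alone as controls, and both transgenic lines were on the FVB/N background. The labels instead name C57BL/6 as the strain of all 8 libraries. By the methods these mice were sorted younger than the 6 months labelled for LT-HSC replicate 2. The paper also used healthy C57BL/6 mice of 2 ages, for metabolite measurements. Whether normal and CML libraries differed in strain or source cannot be told from these. The LT-HSC replicates came from mice of different ages, so their spread also holds an age difference. Neither the labels nor the methods say whether the LT-CML replicates came from separate mice, or whether any library was a pool. The p-values therefore measure only the spread between these libraries, which may be technical for LT-CML. In these bulk samples, fewer cells of a type and less RNA per cell cannot be told apart.

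The proteasome is the protease complex that degrades ubiquitin-tagged proteins. Its core particle (20S) is a barrel of alpha rings, which gate it, and beta rings, which hold the catalytic sites, and a regulatory particle (19S) of ATPases and non-ATPase subunits binds, unfolds and feeds in the substrate. In blood cells, and in most cells under interferon, Psmb8, Psmb9 and Psmb10 can take the places of the constitutive catalytic subunits Psmb5, Psmb6 and Psmb7, and Psme1 and Psme2 form the PA28 activator that caps the core particle. Constitutive subunit genes are known targets of Nfe2l1 through antioxidant response elements, whereas immunoproteasome genes are known targets of the IRF and STAT factors.

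The promoters of 2 constitutive subunits, of the immunoproteasome subunits that can replace them and of an activator subunit are shown because the results set these genes side by side. The stretches run from 150 bases before to 30 bases after the RefSeq start (GRCm38.p6), 5′ to 3′ on the gene's strand, and each was found once on its chromosome by an exact match in NCBI Build 37 (mm9), the build of the files. The capitals mark a match to 1 of 4 motifs searched on both strands: TGACNNNGC (the antioxidant response element, ARE), TTCNNNGAA (the STAT site, GAS), GAAANNGAA (the interferon-stimulated response element, ISRE) and CCAAT (the NF-Y box). GAS and ISRE matches can overlap.
Psmb5: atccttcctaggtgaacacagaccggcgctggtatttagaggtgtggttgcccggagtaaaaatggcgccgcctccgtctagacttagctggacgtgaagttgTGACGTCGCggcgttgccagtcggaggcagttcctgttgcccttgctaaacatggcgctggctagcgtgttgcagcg
Psmb8: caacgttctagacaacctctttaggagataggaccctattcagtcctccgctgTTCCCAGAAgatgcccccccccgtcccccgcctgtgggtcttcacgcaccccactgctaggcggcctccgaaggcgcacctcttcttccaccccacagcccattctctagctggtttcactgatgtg
Psmb6: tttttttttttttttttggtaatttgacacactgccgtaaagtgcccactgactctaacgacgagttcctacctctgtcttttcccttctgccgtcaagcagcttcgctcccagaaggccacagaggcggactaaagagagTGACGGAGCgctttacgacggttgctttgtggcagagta
Psmb9: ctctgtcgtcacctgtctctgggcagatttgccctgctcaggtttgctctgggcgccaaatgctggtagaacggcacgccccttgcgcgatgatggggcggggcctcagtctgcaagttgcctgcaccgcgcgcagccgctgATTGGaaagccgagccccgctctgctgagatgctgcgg
Psme1: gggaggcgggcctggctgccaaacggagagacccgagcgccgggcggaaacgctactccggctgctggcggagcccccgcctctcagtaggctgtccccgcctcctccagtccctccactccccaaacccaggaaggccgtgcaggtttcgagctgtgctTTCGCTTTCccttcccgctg

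Psmb5 (chr14:55236803-55236982, minus strand) had its ARE match 47 bases before the start, and Psmb6 (chr11:70338709-70338888, plus strand) had one 9 bases before it. Psmb8 (chr17:34334990-34335169, plus strand) had a GAS match 97 bases before the start. Psmb9 (chr17:34324246-34324425, minus strand) had a CCAAT box on the opposite strand 8 bases before the start, and Psme1 (chr14:56197181-56197360, plus strand) an ISRE match on the opposite strand 11 bases after it. The RefSeq starts used differ from the gene starts of the GENCODE M1 annotation. By GENCODE M1, Psmb8, Psmb9 and Psme1 begin further upstream, at 34334666, 34324709 and 56196960, so their stretches lie inside the genes. The stretches of Psmb5 and Psmb6 hold the GENCODE M1 start. The motifs of these genes are therefore not at like places. Over windows of 250 bases before to 50 after the RefSeq start, 41 of the 49 members were matched by symbol. The ISRE was in 7 of the 41 and in 8.56% of all 32851 promoters of the table, GAS in 3 and 8.3%, the ARE in 6 and 12.4%, and CCAAT in 15 and 37.4%. The member counts are per gene, with a match in any of its promoters, whereas the percentages are per promoter. Of the 5 immunoproteasome genes, 1 held the ISRE, 1 GAS, 1 CCAAT and 0 the ARE. A match is a description of the letters and says nothing of binding.

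Together the members made up 1.05 to 1.18% of the summed RPKM of each of the 6 LT and ST libraries (the stem libraries) and 1.505% in normal and 1.40% in CML-KLS- cells. Averaged over the 8 libraries, RPKM ran from 1.03 for Psmb11 to 312.8 for Psma7. Psma7, a subunit of the alpha ring, was at 281.3 and 275.6 RPKM in the LT-HSC replicates, 249.2 in ST-HSC, 284.9 and 243.7 in the LT-CML replicates, 242.9 in ST-CML, 485.4 in normal KLS- and 439.4 in CML-KLS-. Psmb1 and Psmb2, of the beta ring, followed with means of 240.2 and 236.9 RPKM. Psmb1 was between 199.2 and 229.4 RPKM in the stem libraries, and the KLS- values were 302.5 (normal) and 325.5 (CML). Psmb2 was between 180.9 and 214.8 RPKM in the stem libraries, with 351.0 and 342.2 in the same KLS- libraries. In all 3 genes both KLS- libraries lay above every stem library.

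Although core and regulatory subunits assemble in fixed proportions, their RPKM spread widely. The 7 alpha subunits (Psma1 to Psma7) had means of 157.9 to 312.8 RPKM, the 7 constitutive beta subunits 41.1 (Psmb4) to 240.2, the 6 ATPases 65.6 to 114.6 and the 11 non-ATPases 4.07 to 98.2. Psmd3, a scaffold subunit of the regulatory particle, was the lowest of these at 4.90 and 3.82 RPKM in LT-HSC, 3.94 in ST-HSC, 3.11 and 3.94 in LT-CML, 2.82 in ST-CML, 4.67 in normal KLS- and 5.33 in CML-KLS-. Of the other non-ATPases, Psmd13 was the lowest, with a mean of 43.8 RPKM. The libraries were primed with oligo-dT and the annotation behind the authors' RPKM is not given in the sources used here, so levels between genes also carry the lengths the authors used. The proteasome chaperones were lower than most subunits, with means of 7.94 to 46.4 RPKM for the 19S chaperones Psmd5, Psmd9 and Psmd10 and 17.3 to 56.7 for the 20S chaperones Psmg1 to Psmg4.

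The testis subunit Psma8 and the thymus subunit Psmb11 were the other members at the bottom. Psma8 was between 3.33 and 7.48 RPKM in the stem libraries, against 4.29 in normal and 2.92 in CML-KLS- cells. Psmb11 was between 1.005 and 1.52 RPKM in the stem libraries and lower in both KLS- libraries, at 0.768 in normal and 0.586 in CML. At the estimated depth of 17.8 to 23.9 M reads per library the lowest Psmb11 value rests on about 44 reads, a counting error of 15.1%, so the sparsest member was still measured above the level of single reads.

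The comparison of progenitors with stem cells separated the members most. In KLS- libraries 37 of 49 members were higher and 2 lower than in LT and ST libraries, while 22.2% of all genes tested were called higher and 26.5% lower (limma on log2(RPKM + 1), cell type and disease in the model, adjusted p under 0.05). The median log2 fold change was 0.71 over the members and -0.08 over all genes tested. For 37 members both KLS- libraries lay above all 6 stem libraries, which held for 21.9% of all genes.

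Subunits of the core particle and of the ATPase ring were called almost throughout. All 7 alpha subunits, all 7 constitutive beta subunits and all 6 ATPases of the regulatory particle were higher in KLS- cells, and so were 10 of the 11 non-ATPases, the exception being Psmd3 (log2 fold change 0.38, SE 0.16, adjusted p = 0.0854). Of these 4 groups only the ATPases kept their count without either KLS- library: without the CML-KLS- library 6 of 7 alpha, 4 of 7 beta, 6 of 6 ATPase and 7 of 11 non-ATPase subunits were called higher, and after quantile normalization 3, 3, 4 and 6. Psmb4 (0.34, SE 0.11, adjusted p = 0.0351) was the least firm. It was not called without any 1 of 6 libraries, namely LT-HSC replicate 1, ST-HSC, LT-CML replicate 2, ST-CML and either KLS- library (adjusted p 0.0546 to 0.212), and its difference was 0.00 with equal summed RPKM. Psma4 (0.49, SE 0.13, adjusted p = 0.0148) was not called without ST-CML or either KLS- library (adjusted p 0.0562 to 0.167) and stood at -0.10 after quantile normalization. Psmb3, a structural subunit of the beta ring, was at 152.0 and 121.1 RPKM in LT-HSC, 152.1 in ST-HSC, 143.7 and 149.6 in LT-CML and 104.6 in ST-CML, against 312.4 in normal and 293.9 in CML-KLS-. Its log2 fold change was 1.18 (SE 0.16, adjusted p = 0.000556). Psmd13, a lid subunit of the regulatory particle, went from between 23.4 and 39.7 RPKM in the stem libraries to 89.8 in normal and 70.8 in CML-KLS- (log2 fold change 1.36, SE 0.17, adjusted p = 0.000349). The ATPases Psmc4 and Psmc5, which unfold the substrate, followed. Psmc4 was at 91.2 and 62.2 RPKM in LT-HSC, 88.6 in ST-HSC, 92.4 and 80.4 in LT-CML, 75.2 in ST-CML, 154.8 in normal KLS- and 191.5 in CML-KLS-. Psmc5 was at 68.7 and 54.4 RPKM in LT-HSC, 64.1 in ST-HSC, 62.9 and 61.3 in LT-CML and 52.5 in ST-CML, and at 127.3 and 126.1 in the KLS- libraries. Both were about as far apart, with log2 fold changes of 1.08 (SE 0.17, adjusted p = 0.00127) and 1.07 (SE 0.13, adjusted p = 0.000366).

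Assembly factors and the remaining activators were divided. Psmg3, a chaperone of core particle assembly, had the largest difference of any member: 23.8 and 23.4 RPKM in LT-HSC, 22.3 in ST-HSC, 33.9 and 28.9 in LT-CML, 27.4 in ST-CML, 65.7 in normal KLS- and 78.3 in CML-KLS-. That is a log2 fold change of 1.43 (SE 0.12, adjusted p = 5.42e-05). Psmg1 and Psmg2, which pair as another such chaperone, were higher by 0.48 and 0.65 on the log2 scale, though neither was called without either KLS- library (adjusted p 0.0565 to 0.105), while Psmg4 was at -0.05 (SE 0.17, adjusted p = 0.827). Psmd9 was the only one of the 3 chaperones of the regulatory particle to pass the test, and Psme3, the nuclear activator, the only one among Psme3, Psme4 and the inhibitor Psmf1. Without the CML-KLS- library neither was called, at 0.30 for Psmd9 (adjusted p = 0.291, from 0.60) and 0.47 for Psme3 (adjusted p = 0.119, from 0.58). Psmd9 was not called without ST-CML either (adjusted p = 0.0570), and neither was with equal summed RPKM. The tissue-specific Psma8 and Psmb11 fell by 0.54 (SE 0.17, adjusted p = 0.0262) and 0.38 (SE 0.12, adjusted p = 0.0236) on the log2 scale, and only the values of Psmb11 were separate from those of all stem libraries. Neither was called without the ST-HSC library (adjusted p = 0.0929 for Psma8 and 0.0809 for Psmb11), without either KLS- library (0.0813 to 0.237 and 0.106 to 0.180), after quantile normalization or with equal medians. Psmc3ip was higher by 0.83 (SE 0.23, adjusted p = 0.0170), a value that rested on the normal KLS- library: without it the difference was 0.33 (SE 0.24, adjusted p = 0.330). It was not called without ST-HSC (adjusted p = 0.0540), with equal summed RPKM or after quantile normalization either.

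**Figure D1:**
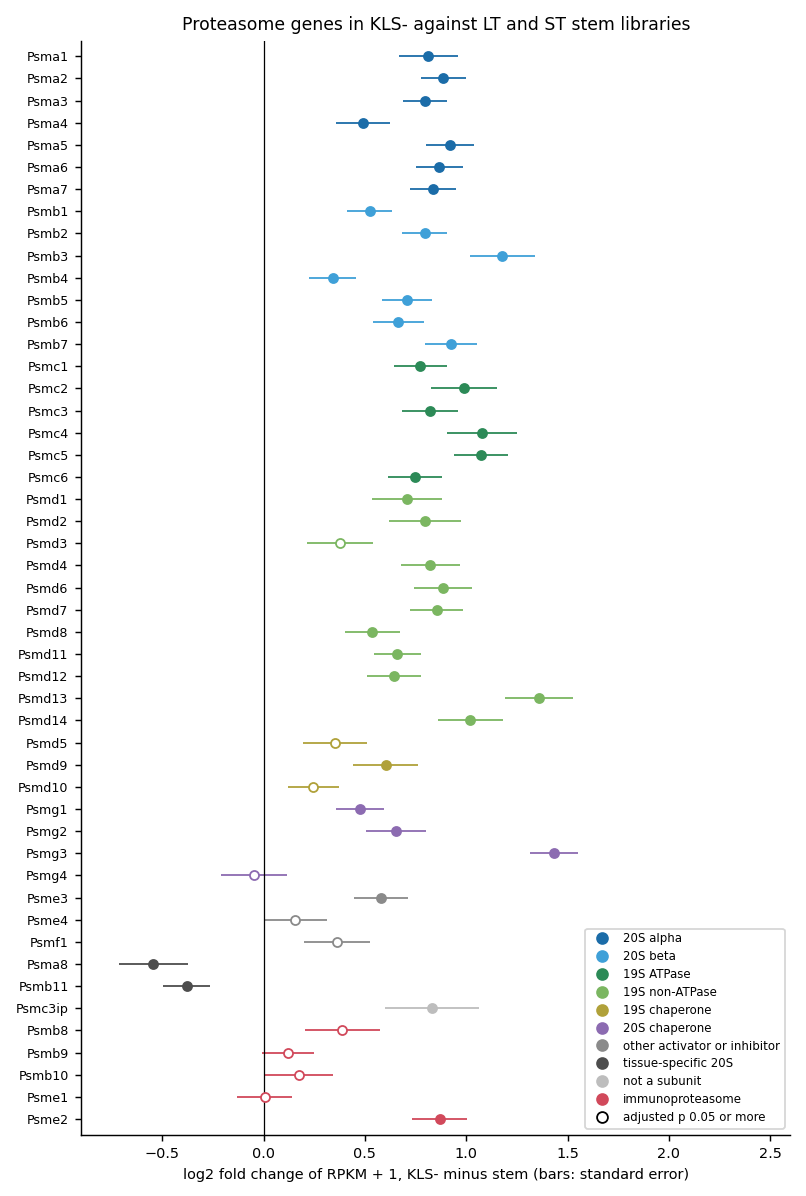
Log2 fold change of RPKM + 1 between the KLS- libraries (n = 2) and the LT and ST libraries (n = 6) for each of the 49 genes, grouped by role, where 20S is the core and 19S the regulatory particle. Bars are standard errors from limma and open points have an adjusted p of 0.05 or more. The alpha, beta and ATPase subunits lie right of 0 with filled points, and 4 of the 5 immunoproteasome genes at the bottom are open.

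The immunoproteasome genes did not share this pattern as a group: 1 of 5 was higher, against 36 of the 44 other members. Their median log2 fold change was 0.18 and that of the other members 0.76. Summed over the genes, KLS- libraries held 1.32 times the mean RPKM of the stem libraries for the 5 and 1.73 times for the 44. Psme2 was the gene that rose. It was at 176.4 and 147.2 RPKM in LT-HSC, 186.9 in ST-HSC, 177.6 and 140.6 in LT-CML, 170.2 in ST-CML, 300.9 in normal KLS- and 317.3 in CML-KLS- (log2 fold change 0.87, SE 0.13, adjusted p = 0.00105). Psme1 codes for its partner in the same ring and was at 214.6 and 203.7 RPKM in LT-HSC, 258.9 in ST-HSC, 205.3 and 152.0 in LT-CML, 216.0 in ST-CML, 227.0 in normal KLS- and 201.6 in CML-KLS-. Its log2 fold change was 0.00 (SE 0.13, adjusted p = 0.978), and its KLS- values sat inside the stem range. The ratio of Psme1 to Psme2 was 1.08 to 1.39 in the stem libraries, 0.754 in normal KLS- and 0.635 in CML-KLS-, a ratio that was chosen after the values were seen and was not tested. Psme2 has a near-identical copy, Psme2b, and the counting of shared reads is not given in the sources used here.

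The catalytic subunits were set against the constitutive subunits whose places they take. Psmb5 (chromosome 14, 55232644 to 55236851 on mm9 in GENCODE M1) was at 63.7 and 56.8 RPKM in LT-HSC, 60.8 in ST-HSC, 65.8 and 55.2 in LT-CML, 54.1 in ST-CML, 95.7 in normal KLS- and 97.8 in CML-KLS-. Psmb8 (chromosome 17, 34334666 to 34338399) was at 141.8 and 115.2 RPKM in LT-HSC, 200.8 in ST-HSC, 171.6 and 107.6 in LT-CML, 169.6 in ST-CML, 217.3 in normal KLS- and 192.7 in CML-KLS-. Psmb5 was higher in KLS- cells (log2 fold change 0.71, adjusted p = 0.00183), and for Psmb8, whose groups overlapped, the difference was 0.39 (SE 0.19, adjusted p = 0.112).

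Psmb6 (chromosome 11, 70338869 to 70341360) was at 181.0 and 158.2 RPKM in LT-HSC, 183.0 in ST-HSC, 168.0 and 150.6 in LT-CML, 154.1 in ST-CML, 250.6 in normal KLS- and 277.9 in CML-KLS-. Psmb9 (chromosome 17, 34318933 to 34324709) was at 89.8 and 91.8 RPKM in LT-HSC, 101.8 in ST-HSC, 74.0 and 61.0 in LT-CML, 73.4 in ST-CML, 94.1 in normal KLS- and 85.1 in CML-KLS-. Psmb6 was separated between KLS- and stem libraries (0.67, adjusted p = 0.00271) and Psmb9 was not (0.12, SE 0.13, adjusted p = 0.452).

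Psmb7 (chromosome 2, 38443556 to 38499607) was at 79.0 and 67.1 RPKM in LT-HSC, 68.8 in ST-HSC, 78.1 and 62.9 in LT-CML, 66.1 in ST-CML, 139.3 in normal KLS- and 126.2 in CML-KLS-. Psmb10 (chromosome 8, 108459628 to 108462292) was at 95.8 and 85.5 RPKM in LT-HSC, 94.3 in ST-HSC, 87.3 and 63.2 in LT-CML, 95.1 in ST-CML, 91.1 in normal KLS- and 109.0 in CML-KLS-. The log2 fold changes were 0.92 for Psmb7 (adjusted p = 0.000643) and 0.18 for Psmb10 (SE 0.17, adjusted p = 0.404). In each of the 3 pairs the constitutive gene passed the test and the immunoproteasome gene did not. Psmb6 was not called without the CML-KLS- library (0.52, SE 0.18, adjusted p = 0.0706) or after quantile normalization (0.08, SE 0.08, adjusted p = 0.458), and Psmb8 was called without replicate 1 of LT-CML (0.47, SE 0.12, adjusted p = 0.0178). The difference between the members of a pair was not part of that fit.

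**Figure D2:**
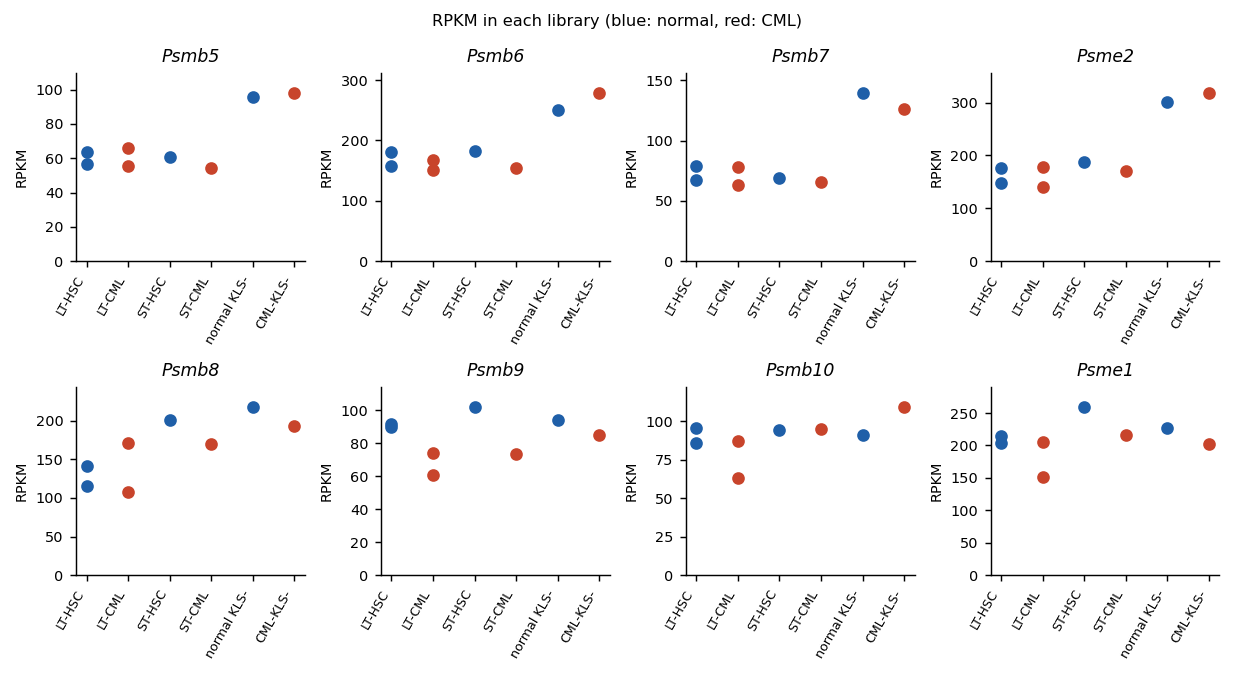
RPKM in each library for the constitutive catalytic subunits Psmb5, Psmb6 and Psmb7 above the immunoproteasome subunits Psmb8, Psmb9 and Psmb10 that can replace them, and for the activator subunits Psme2 and Psme1. Each point is 1 library, blue for normal and red for CML, and axes start at 0. The upper row has both KLS- libraries above all stem libraries, for example 95.7 and 97.8 RPKM against at most 65.8 for Psmb5.

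A ratio within a library does not depend on a factor that scales the whole library. Psmb9/Psmb6 was 0.405 to 0.581 in the stem libraries, 0.375 in normal KLS- and 0.306 in CML-KLS-. Psmb10/Psmb7 was 1.01 to 1.44 in the stem libraries, 0.654 in normal KLS- and 0.864 in CML-KLS-. For these pairs both KLS- libraries lay below all stem libraries. Psmb8/Psmb5 was 1.95 to 3.30 in the stem libraries, with both KLS- values, 2.27 and 1.97, inside that range. The comparison of these ratios between KLS- and stem libraries was made after their values were seen. The exact two-sided permutation test gave p = 0.0714 for Psmb9/Psmb6 and Psmb10/Psmb7, the smallest that 2 against 6 libraries allow, and p = 0.5 for Psmb8/Psmb5 (0.107, 0.107 and 0.5 adjusted over the 3 pairs), so that no pair passed.

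**Figure D3:**
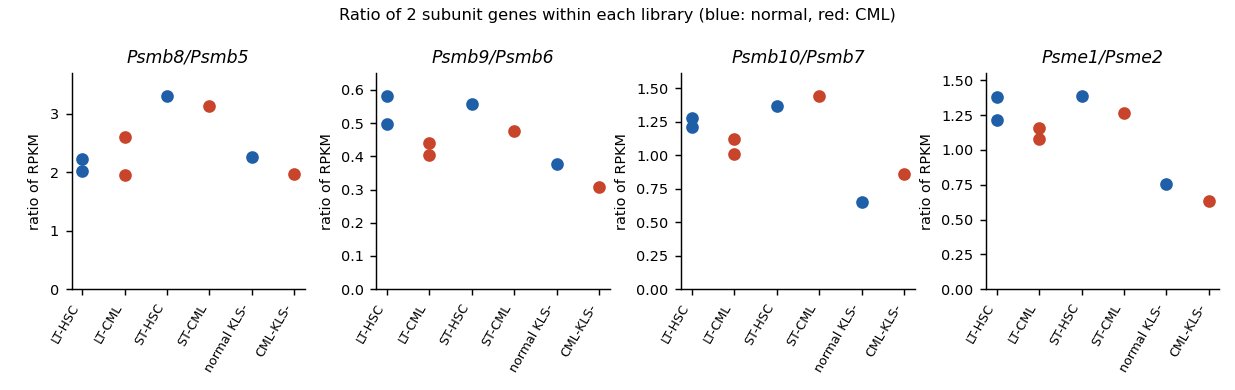
Ratio of RPKM between an immunoproteasome subunit and its constitutive counterpart, and between both activator subunits, in each library (blue, normal; red, CML), on axes that start at 0. Psmb9/Psmb6, Psmb10/Psmb7 and Psme1/Psme2 are lower in both KLS- libraries than in any stem library, and Psmb8/Psmb5 is not.

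The size of the KLS- difference depended on how the libraries were brought to 1 scale. The summed RPKM of all genes was 324114 to 372849 in the stem libraries and 444650 and 465695 in the KLS- libraries, so that scaling to equal sums lowers every KLS- value. Scaled in this way, 26 members were higher and 3 lower, against 12.4% of all genes called higher and 41% lower, with medians of 0.36 over the members and -0.28 over all genes. After quantile normalization 20 were higher and 2 lower, against 21.8% and 20.1% of all genes, with medians of 0.26 and 0.02. With equal medians 43 were higher and 0 lower, against 30.6% and 21.6% of all genes. Scaling by 1 factor per library moves all members nearly alike. Quantile normalization, which does not, left a median of -0.29 for the 5 immunoproteasome genes and 0.27 for the other members. The direction of single immunoproteasome genes changed with the scaling: Psme1 was lower in KLS- cells with equal sums (-0.34, adjusted p = 0.01996) and after quantile normalization (-0.57, adjusted p = 0.00274), as was Psmb9 in the latter (-0.34, adjusted p = 0.0256), whereas Psmb9 and Psmb8 were higher with equal medians (0.30, adjusted p = 0.0379, and 0.57, adjusted p = 0.0165). Under all 5 scalings 16 members were called higher, 0 of them immunoproteasome genes. The share of all genes called higher under all 5 was not counted, so these counts have no background to be read against. Among the scalings, Psme2 missed the threshold only after quantile normalization (0.26, adjusted p = 0.0579).

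**Figure D4:**
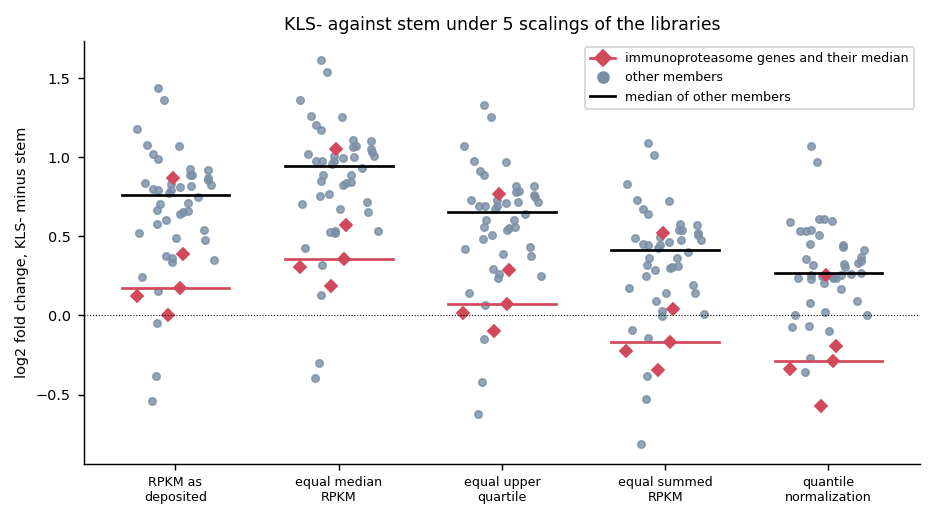
Log2 fold change between KLS- and stem libraries for the 5 immunoproteasome genes (red diamonds, red median line) and the 44 other members (grey points, black median line) with RPKM as deposited and under 4 other scalings. The black line falls from 0.94 with equal medians to 0.27 after quantile normalization, and the red line lies below it throughout, crossing 0.

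Within the CML libraries alone 22 members were higher (median 0.77, and 0.34 for the immunoproteasome genes), and within the normal libraries alone 4 were (median 0.65, and -0.02 for the immunoproteasome genes), with 1 KLS- library in each. The shares of all genes called higher were 11.9% and 3.55%. Leaving out either KLS- library also left 1 in the group. Without the CML-KLS- library the median was 0.675 over the members and -0.08 over all genes. Without the normal KLS- library it was 0.75 over the members and -0.06 over all genes.

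Other genes moved with the KLS- difference. All 19 proliferation genes measured were higher in KLS- cells (median 1.20), for example Rrm2, which makes deoxynucleotides, at 2.56 (SE 0.21, adjusted p = 5.31e-05). Between ST and LT cells 11 of the 19 were lower in ST (median -1.15). Of the 49 proteasome genes 0 passed the test there. Their median was -0.07, with 32 negative and 17 positive, against a median of -0.01 over all genes tested. The 8 neutrophil markers measured summed to 9490 RPKM (normal) and 15562 RPKM (CML) in KLS- cells, against 246 to 4040 RPKM in the stem libraries with the highest values in replicate 2 of LT-HSC and of LT-CML, and 0 of the 8 were at 0 in any library. Leaving out either of those replicates left 37 and 36 members higher. Of the 8 neutrophil markers 3 were called higher in KLS- cells and 0 lower, with a median log2 fold change of -0.03. The rise in their sum was therefore not shared by the whole list. The 6 erythroid markers summed to 826 and 1814 RPKM in KLS- cells and to 7.02 to 96.7 RPKM in the stem libraries, with 1 or 2 of them at 0 in each library. The part of the cell cycle and of these cells in the result was not tested.

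For associated proteins, VCP genes and ubiquitin genes, the counts called higher are to be read against the 22.2% of all genes, which they lay near. Of 18 associated proteins outside the naming rule, 5 were higher in KLS- cells, including the substrate receptor Adrm1 (0.75), the lid component Shfm1 (0.84) and the deubiquitinase Usp14 (1.06), and 3 were lower, with Zfand5 at -1.48. Of 8 genes of the VCP unfoldase and its cofactors 2 were higher, and of 6 ubiquitin and activating enzyme genes 1 was (Uba1, 0.64). Among 10 factors known to act on proteasome genes, 1 was higher (Nfyb, 0.43) and 5 were lower, among them Irf1 (-1.52), which acts on immunoproteasome genes, and Stat3 (-1.02). Of 14 interferon response genes outside the MHC, 10 were lower and 1 higher, with a median of -0.98. Of 6 genes of peptide presentation and its control, B2m (-0.64) and Nlrc5 (-0.92) were lower and 0 higher. Over all genes 26.5% were called lower, and the 2 of 6 lay near that share.

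CML stem cells (LT and ST together) were then compared with normal HSCs, with 3 libraries on each side. Over the 5 sorting genes (Kit, Ly6a, Slamf1, Cd48 and Flt3) the median log2 fold change was 1.02, with 0 called. Between LT-CML and LT-HSC alone that median was 1.21, with 1 called higher. No member was called, 0 of 49, while 2.34% of all genes tested were (limma, 6 libraries). At an unadjusted p under 0.05 there were 3: Psmb9 and, in the other direction, Psmg3 and Psmc3ip. The median log2 fold change was -0.10 over the members and -0.04 over all genes tested. It was negative for 39 of 49 members and for 7165 of the 12561 genes. The count of negative members depended on the scaling. It was 28 of 49 for equal summed RPKM (median -0.03) and 24 of 49 after quantile normalization (median 0.00). Psmb9 averaged 69.5 ± 7.34 RPKM over the CML stem libraries (SD, n = 3) and 94.5 ± 6.44 over the normal ones. Each CML stem library lay below each normal one, and the log2 fold change of -0.44 (SE 0.13) did not pass the correction over all genes (adjusted p = 0.192). Its neighbour Tap1, the peptide transporter whose start lies head to head with that of Psmb9, was at 12.0 to 13.7 RPKM in CML stem and 18.2 to 22.0 RPKM in normal libraries (-0.61, SE 0.14, adjusted p = 0.0757).

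The other immunoproteasome genes overlapped between CML stem and normal HSC libraries, with log2 fold changes of -0.02 (SE 0.26) for Psmb8, -0.18 (SE 0.17) for Psmb10, -0.25 (SE 0.17) for Psme1 and -0.06 (SE 0.15) for Psme2. Psma3, Psmd10 and Psme3 were also lower in every CML stem library than in any normal one, and Psmg3 and Psmc3ip higher. With Psmb9 that makes 8.16% of the members separated downwards and 4.08% upwards, against 11.4% and 6.92% of all genes. The Psmb9/Psmb6 ratio averaged 0.441 ± 0.036 over the CML stem libraries (SD, n = 3) and 0.544 ± 0.044 over the normal ones. All 3 CML values lay below the normal ones, and the exact two-sided permutation test gave p = 0.1, the smallest that 3 against 3 allows (0.3 adjusted over the 3 pairs). The same exact permutation test gave p = 0.5 for Psmb10/Psmb7 and p = 1 for Psmb8/Psmb5.

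A difference that passed the test was found in a gene that acts before the particle. Ubb, 1 of the genes for ubiquitin itself, was at 2124 and 1811 RPKM in LT-HSC, 2204 in ST-HSC and 1694 in normal KLS-, against 598.7 and 656.2 in LT-CML, 603.2 in ST-CML and 550.9 in CML-KLS-. All CML libraries lay below all normal ones, and the log2 fold change in stem cells was -1.72 (SE 0.13, adjusted p = 0.00075). It was the gene called among the 6 of the ubiquitin list, and 0 of 8 VCP genes and 0 of 10 factors were called. Of the 18 associated proteins outside the naming rule, 1 was called lower in CML stem cells and 0 higher. Of the 14 interferon response genes, Bst2 (-1.63) and Rsad2 (-2.00) were lower and the median was -1.05.

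Between LT-CML and LT-HSC alone, with 2 libraries each, 0 of 49 members were called and 1.73% of all genes were. At an unadjusted p under 0.05 there was 1, Psmc3ip (0.51, SE 0.21, adjusted p = 0.403). The median over the members was -0.03. For Psmb9 the log2 fold change was -0.43 (SE 0.19, adjusted p = 0.438).

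With 1 library on each side, ST-CML against ST-HSC and CML-KLS- against normal KLS- have no test. In ST-CML 44 of 49 members were below ST-HSC, as were 7525 of the 12561 genes. The median log2 difference was -0.25 over the members and -0.08 over all genes. Replicates of 1 population differed nearly as much. In LT-HSC replicate 2 (6 months) lay below replicate 1 (2 months) for 43 of 49 members (median -0.23), a difference that also carries age. The same held for 7080 of the 12561 genes (median -0.05). In LT-CML, with no age in the labels, replicate 2 lay below replicate 1 for 42 of 49 (median -0.18) and for 8001 of the 12561 genes (median -0.09). The immunoproteasome genes were below in all 5 cases in the LT-CML pair, with a median of -0.43. Between the KLS- libraries the median was -0.04, with 19 members higher and 30 lower in CML. Of all genes tested, 5919 were higher and 6532 lower (median -0.01).

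**Figure D5:**
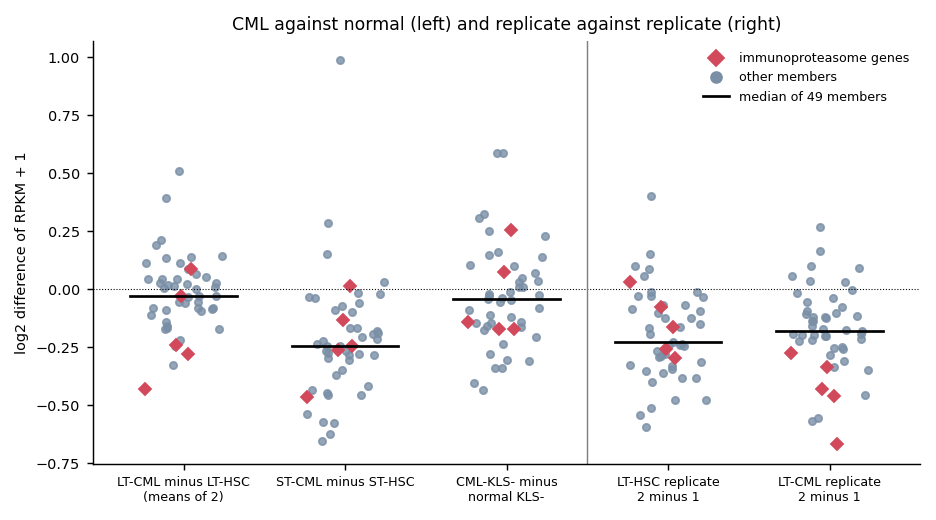
Log2 difference of RPKM + 1 for each of the 49 members between CML and normal libraries of 1 cell type (left of the line) and between replicates of 1 population (right of it). Diamonds are the immunoproteasome genes, circles the other members and black lines the medians. The median for ST cells, -0.25, is close to that between the LT-HSC replicates, -0.23, which came from mice of 2 and 6 months.

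The effect of CML in KLS- cells was set against that in stem cells by an interaction. The ST and KLS- populations had 1 library each, so the residual spread came only from the LT-HSC and LT-CML pairs. The test thus has no measure of the spread between KLS- libraries. No member passed, 0 of 49, and 0.0239% of all genes did. Psmc3ip alone had an unadjusted p under 0.05 (-1.09, SE 0.34, adjusted p = 1). Between the stem populations, ST against LT in all 8 libraries with disease in the model, 0 of 49 members were called against 4.87% of all genes. There were 4 with an unadjusted p under 0.05: Psmb8 higher in ST (0.48, SE 0.19, adjusted p = 0.216) and Psma8, Psmb4 and Psmg1 lower. All 5 immunoproteasome genes had positive log2 fold changes (median 0.21), and the median of the other members was -0.08. Psme1 was higher in both ST libraries than in any LT library, with 258.9 and 216.0 RPKM against at most 214.6, and did not pass the test (0.30, SE 0.14, adjusted p = 0.286). It was the 1 member separated in this way (2.04%), against 11.3% of all genes. Psma8, Psmd9 and Psmg1 were lower in both ST libraries than in any LT library (6.12% of members), against 12.9% of all genes.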

How the data were processed

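Sorted bone marrow populations were sequenced in 8 libraries, grouped by their labels. The authors primed the RNA with oligo-dT in an ultra-low-input kit, sequenced 100 bases from both ends, aligned the reads to mm9 (NCBI Build 37) with SeqNova CS, and deposited 1 RPKM value per gene and library. The annotation and the treatment of reads with several matches are not given in the sources used here, so members with near-identical copies or pseudogenes (Psme2, Psmb5, Psmb6, Psmb7, Psma5) are uncertain. RPKM are not counts. Depth was therefore estimated from the steps between low values and GENCODE M1 exon lengths, and it covers counting error only.

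Log2(RPKM + 1) of the 12561 genes with a total above 1 RPKM was tested with limma 3.58.1 (R 4.3.3; functions lmFit and eBayes, the latter with a trend), with Benjamini-Hochberg adjustment over all of them and a threshold of 0.05, after the code was tested on simulated data. This scale understates changes of low genes. CML stem against normal HSC used 6 libraries. LT-CML against LT-HSC and the interaction used 8 libraries with 1 mean per population, so that only the LT replicates gave residual spread. KLS- against stem and ST against LT used cell type plus disease. Ratios were compared by exact permutation. Alternatives covered pseudocount, filter, scaling, model and each library left out. The members and lists were chosen with earlier results of these data known. Values in every library were given for the immunoproteasome genes, their counterparts, the 5 largest changes among called members of KLS- against stem and the highest and lowest genes, with ranges for some of these. Some results among the listed partner genes are not reported here.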

Additional observations from a re-analysis of the deposited data

Results flagged for a closer look

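Psmc3ip was picked out because its CML difference ran in opposite directions in stem cells and in progenitors. It was at 23.4 and 20.2 RPKM in LT-CML and 23.9 in ST-CML, above the 17.1 and 13.1 in LT-HSC and 11.5 in ST-HSC, whereas CML-KLS- cells at 28.1 RPKM lay below normal KLS- cells at 35.7, a log2 difference of -0.34 with 1 library on each side. The interaction test of that difference gave -1.09 (SE 0.34), and it did not pass the correction over all genes (adjusted p = 1 from limma).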

How the results depend on the processing

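Of the alternatives computed for the counts of called members, the medians and the 3 ratios, 9 moved a value. Called members in KLS- against stem numbered 39, and 22 after quantile normalization, 4 with normal libraries only and 22 with CML libraries only, where 1 KLS- library meets 3 stem libraries. Their median of 0.71 became 0.26 after quantile normalization, 0.36 with equal summed RPKM and 0.89 with equal medians, and the last 2 scalings were chosen after seeing the data. The median of the interaction, 0.09, became -0.0598 with equal summed RPKM. The median for ST-CML against ST-HSC, -0.25, became -0.0912 with upper-quartile scaling and -0.0684 after quantile normalization. Apart from the scalings themselves the cause was not tested. Leaving out 1 library at a time gave 26 to 40 called members in KLS- against stem, and the log2 Psmb9/Psmb6 ratio of CML stem against normal HSC stayed between -0.37 and -0.25. No paired analysis was possible because the labels give no replicate numbers shared between the groups compared.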
